A study of Mus musculus with 8 samples.

Results

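DE_Rora and DE_Tac1 are a pair of dorsal excitatory neuron subtypes of the mouse low thoracic spinal cord, named in the authors' deposited annotation after the nuclear receptor gene Rora and the tachykinin gene Tac1. Their members were taken from that annotation as it stands: 46 nuclei called DE_Rora and 40 called DE_Tac1, 86 in all, out of 1921 dorsal excitatory nuclei (names starting with DE), 4076 neurons and 12447 nuclei. The remaining 1835 DE nuclei belong to 8 other subtypes, against which the pair is described below. In these names D was read as dorsal and E as excitatory.

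Rora encodes a retinoid-related orphan nuclear receptor and is a known marker of excitatory interneurons of the deep dorsal horn that receive input from low-threshold touch afferents. Tac1 encodes the precursor of substance P and neurokinin A, peptides used by subsets of dorsal horn neurons in circuits of pain and itch. Slc17a6 encodes the vesicular glutamate transporter VGLUT2, which loads glutamate into synaptic vesicles and marks most excitatory neurons of the spinal cord.

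All mice were wild type C57BL/6, and the labels give neither their age nor their sex. Experiment 1 took uninjured cord and sorted nuclei into a GFP-positive fraction, neurons traced from the walking centres of the lumbar cord, and an untraced fraction, each from replicates 1 and 2. Experiment 2 compared 2 libraries after hemisection, a cut through one side of the cord followed by natural repair, with 1 uninjured library, and experiment 3 gave 1 library of traced neurons that had regenerated. The 8 libraries thus form 5 groups; "the uninjured library" below is that of experiment 2, while traced and untraced libraries were uninjured as well.

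The members were few and unevenly spread. Of the DE_Rora nuclei, 20 came from the uninjured library, 16 from hemisection replicate 1, 4 from traced replicate 1, 4 from the regenerating library and 1 from each untraced replicate, while traced replicate 2 and hemisection replicate 2 held 0. Of the DE_Tac1 nuclei, 22 came from the uninjured library, 9 from hemisection replicate 1, 3 from traced replicate 1, 3 from untraced replicate 1 and 1 each from traced replicate 2, untraced replicate 2 and hemisection replicate 2, while the regenerating library held 0. DE_Rora nuclei had a median of 8060 UMIs (unique molecular identifiers, counts of distinct captured transcripts; range 593 to 26479) and DE_Tac1 nuclei a median of 10505.5 (range 758 to 18741), against 7016 in the other DE nuclei. The regenerating library stood apart in depth, with a median of 617.5 UMIs in its 4 DE_Rora nuclei and 488 in its neurons, against up to 16489.5 in the neurons of traced replicate 1. No member shared a barcode with a nucleus of another library (0 found, with 4 members whose names carry no barcode sequence). Levels are therefore given as CPM, the usual scaling of counts to a fixed total, taken over the UMIs summed from all nuclei of a subtype in a library. A subtype's level is the mean over libraries with at least 10 of its nuclei, which for DE_Rora are hemisection replicate 1 and the uninjured library and for DE_Tac1 the uninjured library alone.

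The naming genes were high where the labels place them. Rora, on chromosome 9 (68653786 to 69388246, plus strand, GRCm38), was at 7801 CPM in the DE_Rora nuclei of hemisection replicate 1 and at 7739 CPM in those of the uninjured library. In the libraries with fewer nuclei it was at 8238 CPM in traced replicate 1, 4778 in untraced replicate 1, 5915 in untraced replicate 2 and 13196 (9470 to 17902, exact 95% Poisson interval) in the shallow regenerating library. DE_Tac1 held less Rora: 2438 CPM in the uninjured library and 3012 in hemisection replicate 1. Its smaller libraries gave 1961 CPM in traced replicate 1, 960 in traced replicate 2, 2029 in untraced replicate 1, 5757 in untraced replicate 2 and 3432 in hemisection replicate 2. All DE_Rora libraries but untraced replicate 1 were thus above the highest DE_Tac1 value, a value from 1 nucleus.

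Among all 27 neuronal subtypes with a level, DE_Rora ranked first for Rora. The 8 other DE subtypes had a mean of 2101 CPM and ranged from 1125 in DE_Sox5_Qrfpr to 3708 in DE_Maf_Cpne4, so DE_Rora was 1.88 higher on the log2(CPM + 5) scale used for all such ratios (2.00 in the uninjured library alone). The highest level outside the DE subtypes was 6135 CPM in the subtype named MN. Per nucleus the ranges overlapped: DE_Rora nuclei ran from 2870 to 17983 CPM with a median of 7582, and DE_Tac1 nuclei from 189 to 7650 with a median of 1944. Since the annotation was made on the expression of these same nuclei, these and all other contrasts between subtypes are descriptions and carry no test. Levels of different genes should not be compared with one another, as the counts are not scaled by transcript length.

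**Figure D1:**
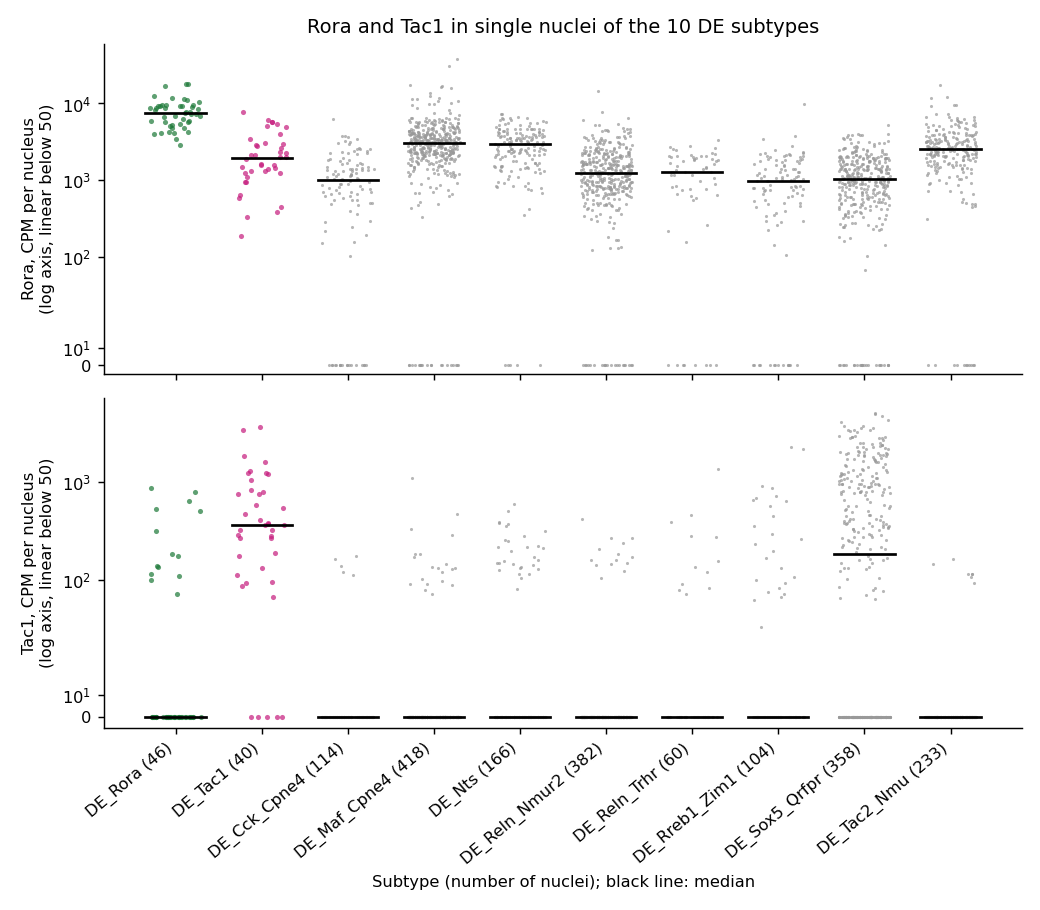
Rora (top) and Tac1 (bottom) in single nuclei of the 10 DE subtypes, in CPM on an axis that is logarithmic above 50 CPM and linear below it; each point is a nucleus and the black line the median of a subtype. The Rora median of DE_Rora (7582 CPM) lies above that of DE_Tac1 (1944), with overlapping nuclei, and Tac1 is spread widely in DE_Tac1 and DE_Sox5_Qrfpr.

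Tac1, on chromosome 6 (7554879 to 7565834, plus strand, GRCm38), was at 728 CPM in the DE_Tac1 nuclei of the uninjured library. It was at 168 CPM in hemisection replicate 1, 542 in hemisection replicate 2, 238 in traced replicate 1, 320 in traced replicate 2, 587 in untraced replicate 1 and 384 in untraced replicate 2. It was therefore detected in DE_Tac1 in every library that held the subtype, with the uninjured library highest and hemisection replicate 1 lowest. DE_Rora had 146 CPM in the uninjured library, 36.8 in hemisection replicate 1, 117 in traced replicate 1 and 0 counts in the untraced and regenerating libraries, which allow up to 409.5, 444 and 966 CPM.

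The other DE subtypes averaged 61.0 CPM of Tac1, which put DE_Tac1 3.47 higher on the log2 scale, but 2.18 higher when only the uninjured library was used for all subtypes, where their mean was 157 CPM. The nearest subtype was DE_Sox5_Qrfpr at 308 CPM. Tac1 had a UMI in 35 of 40 DE_Tac1 nuclei (87.5%) and in 14 of 46 DE_Rora nuclei (30.4%). With each nucleus thinned to 2000 UMIs and shallower nuclei left out, the shares were 54.3% in DE_Tac1, 45.3% in DE_Sox5_Qrfpr, 15.3% in DE_Rora and 12.3% in DE_Rreb1_Zim1. Non-neuronal nuclei, which should lack the gene, had 2.72% after thinning and 3.95% before it, at a median of 3022 UMIs. Rora itself was found in 42.1% of thinned non-neuronal nuclei, and in 91.8% of thinned DE_Tac1 nuclei, so its presence alone did not set DE_Rora apart.

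Both subtypes carried the excitatory transporter. Slc17a6 was at 292 CPM in DE_Rora, 208 in DE_Tac1 and 212 over the other DE subtypes, with a UMI in 38 of 46 and 31 of 40 nuclei. The DE_Rora level depends on the library, with 172 CPM in hemisection replicate 1 and 413 in the uninjured library, so that its log2 difference from the other DE subtypes was -0.25 without the latter and 0.86 in it alone. The other vesicular glutamate transporters, Slc17a7 and Slc17a8, were at 0 in both levels. The inhibitory markers were near 0: Gad1, which makes GABA, was at 6.07 CPM in DE_Rora and 12.5 in DE_Tac1 and had a UMI in 3 nuclei of each, and Pax2, a transcription factor of inhibitory spinal neurons, was at 0 in both. Motor neuron markers (Chat, Slc5a7, Isl1, Mnx1) had 0 counts in the DE_Rora nuclei of both deep libraries and 3 in the DE_Tac1 nuclei of the uninjured library.

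Glial transcripts differed between these libraries: the 8 oligodendrocyte markers summed to 862 CPM in the DE_Rora and 799 CPM in the DE_Tac1 nuclei of the uninjured library, with all 8 detected. In hemisection replicate 1 they summed to 42.9 CPM in DE_Rora (4 of 8 detected) and 30.6 CPM in DE_Tac1 (2 of 8 detected).

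DE_Rora was set off from the other DE subtypes by a group of genes led by Gpc5, a glypican, that is a heparan sulfate proteoglycan of the cell surface. At least 2-fold higher levels were found for 496 of the 7723 genes with a level high enough to compare (6.42%), and at least 2-fold lower levels for 735 (9.52%). Gpc5 was at 5204 CPM in DE_Rora against 134 in the other DE subtypes, 5.23 higher on the log2 scale, and had a UMI in 45 of 46 nuclei. It varied little between libraries: 5653 CPM in traced replicate 1, 4641 in untraced replicate 1, 5767 in untraced replicate 2, 5019 in hemisection replicate 1, 5390 in the uninjured library and 4506 in the regenerating library. All of these lay well above the mean of the other DE subtypes. DE_Tac1 had 1011 CPM of Gpc5 in the uninjured library, above the highest other DE subtype (409 in DE_Rreb1_Zim1). This level was uneven between nuclei: 29 of 40 had a UMI, with up to 78 in 1 nucleus, and the median was 228 CPM (0 to 4544). The 3 nuclei of traced replicate 1 had at most 1 UMI each and that of hemisection replicate 2 had 0, while that of untraced replicate 2 had 3454 CPM. Htr2c, the serotonin 2C receptor, was at 2364 CPM against 140 (log2 4.03, 97.8% of nuclei), and DE_Tac1 had 1427 CPM of it. The highest other DE subtype for Htr2c was DE_Rreb1_Zim1, at 459 CPM.

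The other leading genes of DE_Rora were of several kinds. Grik3, a kainate receptor subunit, was at 314 CPM against 4.04 (log2 5.14) and Grin2c, an NMDA receptor subunit, at 39.6 against 0.301 (log2 3.07). Among transcription factors, Meis2 was at 250 CPM against 12.9 (log2 3.83) and Onecut2 at 61.0 against 1.93 (log2 3.25). Epha4, a receptor of axon guidance, stood at 216 CPM against 10.9 (log2 3.80), and Plcl1, a phospholipase C-like protein, at 808 against 54.1 (log2 3.78). Megf11, Hs3st2 and Sdk1 were higher by 3.53, 3.25 and 3.17 on the log2 scale, of which Sdk1 was 2.15 higher in the uninjured library alone. DE_Tac1 also had Hs3st2 at 158 CPM (204 in DE_Rora), Plcl1 at 196 and Epha4 at 58.2, but Onecut2 and Grin2c only at 4.16 each. The lowest genes were transcription factors and peptides of other DE subtypes: Ebf2 was at 3.03 CPM against 1867 (log2 -7.86), Ebf1 at 91.4 against 5135 (log2 -5.74), Ebf3 at 12.2 against 648 and Bnc2 at 3.06 against 425. Reln, the secreted glycoprotein reelin, was at 3.03 CPM against 412, and Tac2, the neurokinin B precursor, at 3.06 against 358. The Reln mean rests mostly on DE_Reln_Trhr (2005 CPM) and DE_Reln_Nmur2 (894), and DE_Maf_Cpne4 had only 4.02. The Tac2 mean rests mostly on DE_Tac2_Nmu (2637 CPM).

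DE_Tac1 was led by Meis2, a homeobox transcription factor, rather than by the gene in its name. At least 2-fold higher levels were found for 697 of 7979 genes (8.74%) and at least 2-fold lower ones for 659 (8.26%). Meis2 was at 1286 CPM in DE_Tac1 against 12.9 in the other DE subtypes (log2 6.17) and had a UMI in 39 of 40 nuclei. By library it was at 1286 CPM in the uninjured library, 1881 in hemisection replicate 1, 1174 in hemisection replicate 2, 1616 in traced replicate 1, 1814 in traced replicate 2, 908 in untraced replicate 1 and 768 in untraced replicate 2. Every library that held DE_Tac1 thus had Meis2 far above the mean of the other DE subtypes, and DE_Rora had a UMI of it in 31 of 46 nuclei. Grik3 followed at 270 CPM (log2 4.93), with 192 to 587 CPM over the libraries.

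Further leading genes of DE_Tac1 were of several kinds. Nxph1, a secreted ligand of neurexins, was at 2018 CPM against 140 (log2 3.80) and had a UMI in 100% of nuclei. DE_Rora had 761 CPM of it, with a UMI in 37 of 46 nuclei, and the highest of the 8 other DE subtypes was DE_Nts, at 498 CPM. Kcnmb2, an accessory subunit of calcium-activated potassium channels, was at 1069 CPM against 44.1 (log2 4.45) and Sntg2, a syntrophin, at 391 against 19.1 (log2 4.04). Cadps2, which takes part in the release of dense-core vesicles, was at 632 against 51 (log2 3.51), with 312 in DE_Sox5_Qrfpr. The collagen gene Col14a1 was at 150 CPM against 4.86, the guidance cue Sema3e at 270 against 15.2, and Tox3 at 133 CPM. Gal, the galanin precursor, was at 208 CPM against 10.4 (log2 3.79, and 2.98 in the uninjured library alone), and Cartpt, the precursor of the CART peptides, at 104 CPM against 3.87 (log2 3.62). The lowest genes were Bnc2, Nts, Prkd1 and Atp10a, all at 0 counts in the level of DE_Tac1 against 425, 275, 193 and 167 CPM, with Unc5d, a netrin receptor, at 16.6 against 914 and Tac2 at 4.16 against 358. The Nts mean of the other DE subtypes rests mostly on DE_Nts (1353 CPM) and DE_Maf_Cpne4 (663). Of the 12 leading genes of each subtype 2 were shared, Grik3 and Meis2, and of the 6 lowest 2 were shared, Bnc2 and Tac2.

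**Figure D2:**
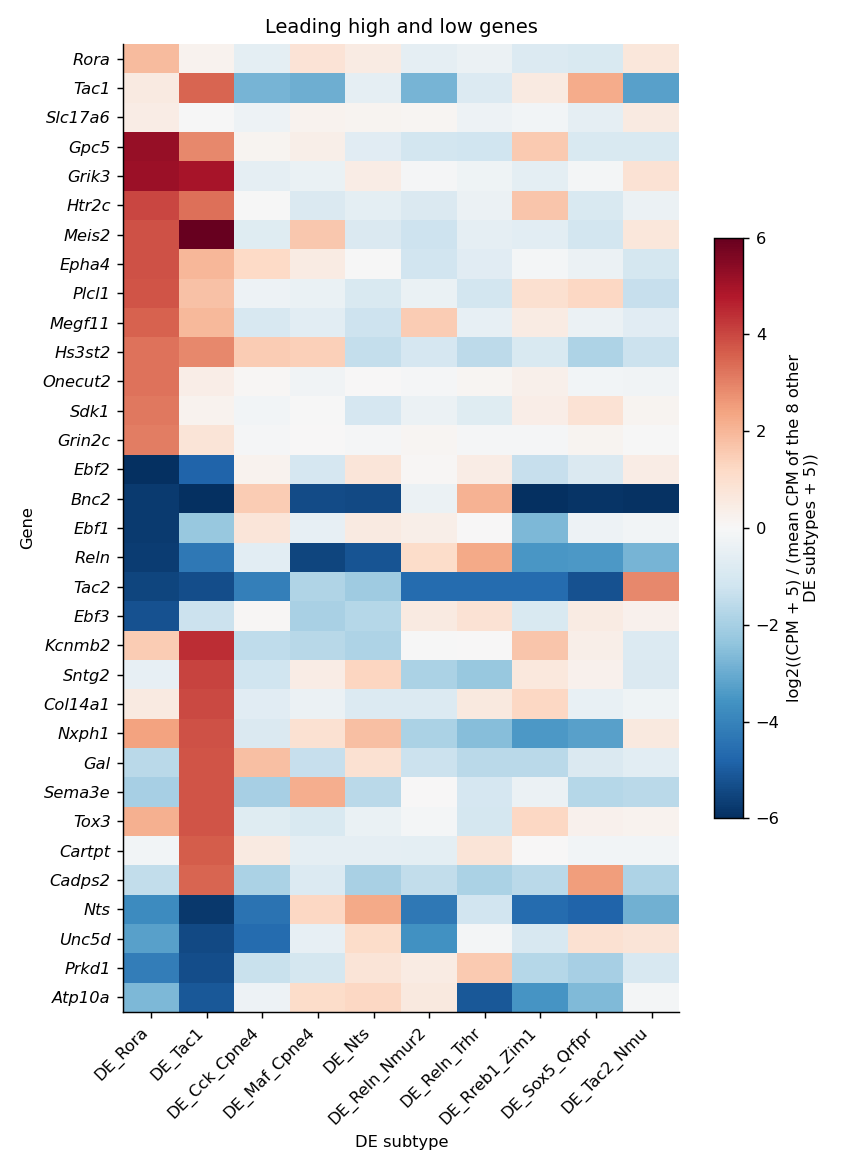
Leading high and low genes of DE_Rora and DE_Tac1 (rows) in the 10 DE subtypes (columns); the colour gives log2 of CPM + 5 over the mean of the 8 other DE subtypes + 5. Gpc5 and Grik3 stand out in DE_Rora (log2 5.23 and 5.14) and Meis2 and Grik3 in DE_Tac1 (6.17 and 4.93), while Bnc2 and Tac2 are low in both and also in several of the other DE subtypes, whose means rest on a few subtypes.

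Neuropeptides separated the pair. Over all genes 6.42% were at least 2-fold higher and 9.52% lower in DE_Rora, and 8.74% and 8.26% in DE_Tac1. Of the 25 listed peptide genes 13 could be compared in DE_Rora, of which 0 were at least 2-fold higher than in the other DE subtypes and 10 lower, with a median log2 difference of -3.43 against 0.04 over all genes. In DE_Tac1 15 could be compared: 5 were at least 2-fold higher (Gal, Cartpt, Tac1, Cck and Penk) and 9 lower, with a median of -1.99 against 0.06 over all genes. The level of DE_Tac1 is that of the uninjured library, while the other DE mean also holds libraries with lower peptide sums. Within the uninjured library Cartpt was 3.22, Gal 2.98 and Tac1 2.18 higher on the log2 scale, while Penk (0.95) and Cck (0.70) were less than 2-fold higher. Cck, the cholecystokinin precursor, was at 491 CPM in DE_Tac1, 33.4 in DE_Rora and 176 in the other DE subtypes, with a maximum of 1049 in DE_Cck_Cpne4. Penk, the enkephalin precursor, was at 258 CPM in DE_Tac1, where it had a UMI in 22.5% of nuclei, and at 0 in DE_Rora, against 111 CPM elsewhere. Sst, the somatostatin precursor, was low in both, at 36.5 and 41.6 CPM against 620, and Grp, the gastrin-releasing peptide gene, was at 0 in both against 72.8. Cbln2, a cerebellin that bridges synapses, was at 70.0 CPM in DE_Rora and 0 in DE_Tac1.

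Peptides were also counted per nucleus in DE_Tac1. Gal had a UMI in 19 of 40 nuclei (47.5%), in 18 of them with Tac1 and in 1 without it. Cartpt had a UMI in 13 nuclei (32.5%), all with Tac1, and 7 of the 40 nuclei had both Gal and Cartpt. Only 4 of the 40 had a UMI of neither Tac1 nor Gal. In DE_Rora Gal was found in 0 of 46 nuclei and Cartpt in 1. Meis2 and Grik3 were found together in 31 of 40 DE_Tac1 nuclei and in 29 of 46 DE_Rora nuclei. Since Tac1 was found in most DE_Tac1 nuclei, and deeper nuclei have more UMIs of every gene, these overlaps are counts and do not show that the genes go together. With nuclei thinned to 2000 UMIs Gal was found in 20.3% and Cartpt in 10.8% of DE_Tac1 nuclei, against 0.852% and 1.04% of non-neuronal nuclei.

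Of 11 peptide receptor genes that could be compared, 6 were at least 2-fold lower and 0 higher in DE_Rora, and 4 lower and 1 higher in DE_Tac1. The shares over all genes were 9.52% lower and 6.42% higher in DE_Rora, and 8.26% and 8.74% in DE_Tac1. The receptor of substance P, Tacr1, was at 30.5 CPM in DE_Rora, 25 in DE_Tac1 and 30.8 in the other DE subtypes. The mu opioid receptor gene Oprm1 was at 82.2 and 58.2 CPM against 155, while the kappa opioid receptor gene Oprk1 was at 12.2 CPM in DE_Rora and 37.4 in DE_Tac1 against 7.83.

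The transcription factors known from the dorsal horn were in part shared by the pair and in part different. Meis2 and Pbx3 were among the highest in both, and Ebf2, Prrxl1, Sox5 and Casz1 among the lowest in both. Of 41 listed, 30 could be compared in DE_Rora, with 10 at least 2-fold higher and 13 lower, and 28 in DE_Tac1, with 7 higher and 12 lower. The median log2 difference was -0.34 in DE_Rora and -0.40 in DE_Tac1. Of all genes 6.42% were higher and 9.52% lower in DE_Rora, and 8.74% and 8.26% in DE_Tac1. Pbx3, a homeobox partner of Meis factors, was at 977 CPM in DE_Rora and 728 in DE_Tac1 against 161, Mef2c at 262 and 291 against 95.2, and Tcf4 at 382 and 420 against 125, so these 3 were high in both. Zfhx3 was at 540 CPM in DE_Rora, 175 in DE_Tac1 and 93.6 elsewhere, Pou4f1 at 54.9, 16.6 and 2.29, and Rorb, a paralog of Rora, at 137, 8.32 and 98.5. Bcl11b was at 137 CPM in DE_Tac1 against 24.4 in DE_Rora and 28.5 elsewhere.

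Factors that specify the excitatory dorsal horn in the embryo were at the low end of the DE class or below it in both subtypes. Lmx1b was at 73.2 CPM in DE_Rora and 129 in DE_Tac1, against 204 in the other DE subtypes (103 to 387). Tlx3 was at 3.03 and 8.32 CPM against 27.4, and Prrxl1 was at 0 in both against 86.7. Ebf1 was at 1044 CPM and Ebf2 at 62.4 CPM in DE_Tac1, between the low values of DE_Rora and the means of the other DE subtypes, 5135 and 1867.

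Factors that mark long-range and local spinal neurons were compared in the same way. Of the 7 long-range factors 4 could be compared in DE_Rora, where 3 were at least 2-fold higher and 1 lower (median log2 1.95), and 3 in DE_Tac1, where 0 were higher and 1 lower. The value of DE_Tac1 depends on the library: its long-range factors summed to 320 CPM in the uninjured library, where the other DE nuclei had 247, and to 810 CPM in hemisection replicate 1, where they had 337. Of the 8 local circuit factors 6 could be compared in DE_Tac1, where 4 were higher (median log2 1.17), and 4 in DE_Rora, where 1 was higher and 1 lower. These counts stand beside 6.42% of all genes higher and 9.52% lower in DE_Rora, and 8.74% and 8.26% in DE_Tac1.

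Voltage-gated channels and signalling genes were compared next. Of the 41 voltage-gated channel genes 40 could be compared in DE_Rora (7 at least 2-fold higher, 14 lower) and 41 in DE_Tac1 (3 higher, 9 lower), against 6.42% and 8.74% of all genes higher and 9.52% and 8.26% lower. The calcium channel subunit gene Cacna2d3 was at 500 CPM in DE_Rora, 66.6 in DE_Tac1 and 171 elsewhere. The potassium channel gene Kcnb2 ran the other way, at 442 CPM in DE_Rora, 1793 in DE_Tac1 and 536 elsewhere. Scn9a, the sodium channel Nav1.7, was at 271 and 175 CPM against 98.2.

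Of 15 calcium-binding and kinase genes 10 were at least 2-fold lower in DE_Rora and 2 higher, with a median log2 difference of -1.79, against 3 lower and 1 higher in DE_Tac1 (median -0.26). Of all genes 9.52% were lower and 6.42% higher in DE_Rora, and 8.26% and 8.74% in DE_Tac1. Camk2a, a calcium/calmodulin-dependent kinase, was at 15.2 CPM in DE_Rora, 283 in DE_Tac1 and 388 elsewhere. Calb1, the calcium buffer calbindin, was at 0, 16.6 and 129 CPM, and Prkca, protein kinase C alpha, at 73.1, 404 and 532.

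Among 22 glutamate receptor genes 3 were at least 2-fold higher in each subtype, with 7 lower in DE_Rora and 5 in DE_Tac1. The shares over all genes were 6.42% higher and 9.52% lower in DE_Rora, and 8.74% and 8.26% in DE_Tac1. Gria4, an AMPA receptor subunit, was at 1886 and 1831 CPM against 931, and the kainate receptor subunit Grik1 was at 18.2 and 16.6 CPM against 230. Both subtypes were thus above the other DE subtypes in Grik3 and below them in Grik1.

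Adhesion and guidance genes gave a wide contrast between the members. Ntng1, a netrin-G that anchors to the axon surface, was at 2404 CPM in DE_Rora, 8.32 in DE_Tac1 and 420 elsewhere, a log2 difference of 7.50 between the pair. DE_Rora ranked first of 27 neuronal subtypes for it and DE_Tac1 last. Robo1, a receptor of Slit proteins, was at 441 CPM in DE_Rora, 2330 in DE_Tac1 and 461 elsewhere, and Cntn6, a contactin, at 1089, 454 and 250. Slit2 was high in both, at 510 and 533 CPM against 125. Of 58 listed genes 12 were at least 2-fold higher and 13 lower in DE_Rora, and 8 higher and 9 lower in DE_Tac1. Over all genes 6.42% were higher and 9.52% lower in DE_Rora, and 8.74% and 8.26% in DE_Tac1.

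Across all genes the pair was less like the other DE subtypes than like several subtypes outside that class. Pearson's r over 6995 genes of log2(CPM + 5), a description across genes that share libraries and depth, was highest for DE_Rora with MIP_Tfap2b (0.893), and was 0.882 with VIL_V1_Sp8. Its r with the other DE subtypes ran from 0.705 to 0.820 (median 0.737), and with the 17 subtypes outside the DE class from 0.742 to 0.893 (median 0.849). DE_Tac1 was most like MIP_Tfap2b (0.871), with 0.726 to 0.846 (median 0.760) for the other DE subtypes and 0.717 to 0.871 (median 0.833) for those outside. The pair had an r of 0.834 with each other, and the other DE subtypes had a median of 0.797 among themselves (0.720 to 0.873). The subtypes differ in their numbers of nuclei and in depth. In the uninjured library alone, over 24 subtypes and 7265 genes, the r with MIP_Tfap2b was 0.857 for DE_Rora (rank 3) and 0.875 for DE_Tac1 (rank 2). With every subtype thinned to 164755 UMIs it was 0.817 (rank 4) and 0.816 (rank 1). The r between the pair was 0.808 in that library and 0.789 after thinning. DE_Tac1 was closer to DE_Rreb1_Zim1 than to DE_Rora in the mean over libraries (0.846), in the uninjured library (0.833) and after thinning (0.795). In the uninjured library before thinning it was also closer to further DE subtypes, among them DE_Sox5_Qrfpr (0.849) and DE_Maf_Cpne4 (0.839).

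**Figure D3:**
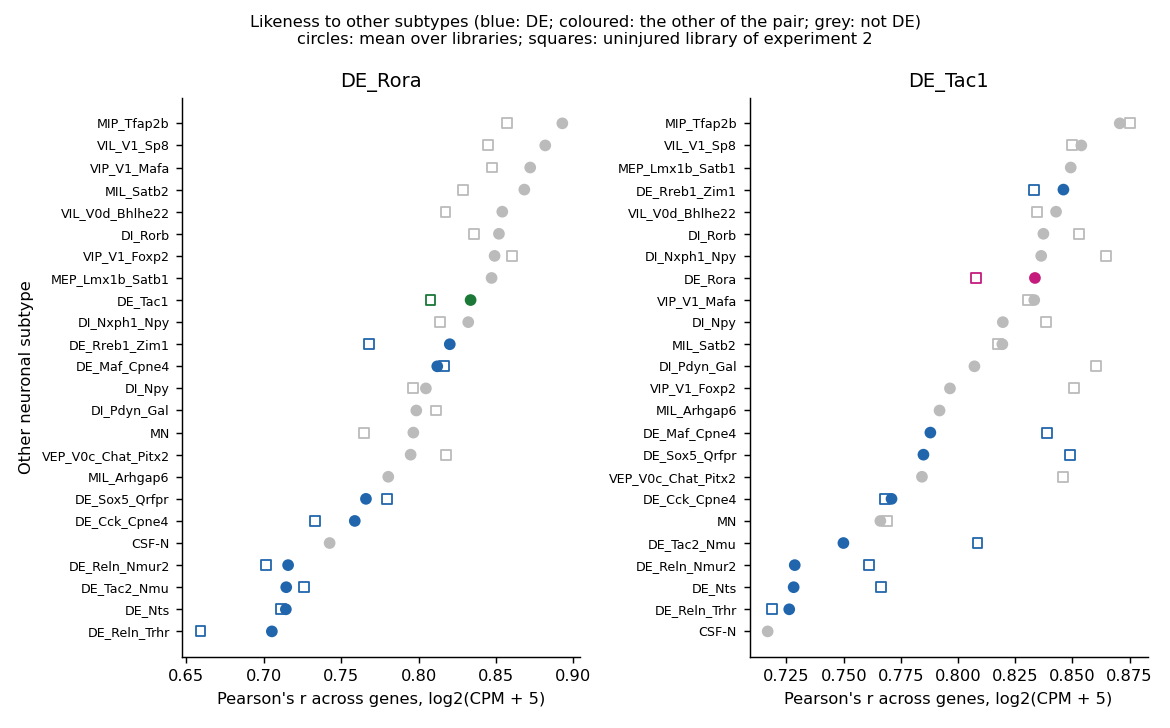
Pearson's r across genes between DE_Rora (left) or DE_Tac1 (right) and other neuronal subtypes, from the mean over libraries (circles) and from the uninjured library of experiment 2 alone (squares). Blue marks the other DE subtypes and grey the subtypes outside the DE class; for DE_Rora most grey circles lie above the blue ones (medians 0.849 and 0.737).

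The share of neurons addresses which subtypes project to the lumbar walking centres and how each subtype was represented after natural repair. DE_Rora made up 5% of neurons in traced replicate 1 (4 of 80, exact 95% binomial interval 1.38 to 12.3) and 0 of 25 in traced replicate 2, which allows up to 12%. In the untraced libraries it made up 0.282% (0.00715 to 1.56) and 0.813% (0.0206 to 4.45). DE_Tac1 made up 3.75% of neurons in traced replicate 1 (0.780 to 10.6) and 4% in traced replicate 2 (0.101 to 20.4), against 0.847% (0.175 to 2.46) and 0.813% (0.0206 to 4.45) in the untraced ones. The traced values of DE_Tac1 lay above both untraced values, while those of DE_Rora lay on either side of them. All intervals and limits cover counting error only.

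The differences between traced and untraced neurons did not pass the test. Shares were tested with edgeR's quasi-likelihood test on numbers of nuclei in all 8 libraries, adjusted over 28 subtypes, and 0 of the 28 (0%) were called between traced and untraced, with 9 at an unadjusted p under 0.05. DE_Tac1 averaged 3.88% ± 0.177 (SD, n = 2) in traced and 0.830% ± 0.0244 (SD, n = 2) in untraced neurons, a log2 difference of 2.15. This had an SE of 0.66 and did not pass (edgeR adjusted p = 0.126). DE_Rora averaged 2.5% ± 3.54 and 0.548% ± 0.375 (SD, n = 2 each). Its log2 difference was 3.11 (SE 1.41, edgeR adjusted p = 0.174) and rests on traced replicate 1: without that library the traced group held 0 of 25 nuclei, and the fitted -4.33 is set by the prior count. The labels do not say for every library that replicates are separate animals, so these p-values measure only the spread between the samples.

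After hemisection neither share passed the test. DE_Rora made up 1.6% of neurons in hemisection replicate 1 (0.917 to 2.59), 0 of 108 in replicate 2, which allows up to 2.78%, and 0.931% in the uninjured library (0.570 to 1.43). DE_Tac1 made up 0.9% (0.412 to 1.70) and 0.926% (0.0234 to 5.05) after hemisection and 1.02% (0.643 to 1.55) in the uninjured library. Between hemisection and the uninjured library 1 of 28 subtypes (3.57%) was called, and it was neither of the pair: the log2 difference was 0.62 for DE_Rora (SE 0.57, edgeR adjusted p = 0.638) and -0.18 for DE_Tac1 (SE 0.33, edgeR adjusted p = 0.940). That of DE_Rora was fitted at -5.08 without hemisection replicate 1, which held all of its hemisection nuclei, so that this value too is set by the prior count. Against the untraced libraries of experiment 1, where 0% of subtypes were called and 4 had an unadjusted p under 0.05, the differences were 1.73 (SE 1.06, edgeR adjusted p = 0.552), or a like fitted -3.98 without hemisection replicate 1, and 0.10 (SE 0.52, edgeR adjusted p = 0.962).

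Regenerating neurons held DE_Rora but 0 DE_Tac1 nuclei. DE_Rora made up 1.68% of the 238 regenerating neurons (0.460 to 4.25), a log2 difference from traced neurons of -1.17 (SE 1.21, edgeR adjusted p = 0.523), which was a fitted 6.28 without traced replicate 1, against 0 traced nuclei. DE_Tac1 was found in 0 of 238, which allows up to 1.26% at a floor of 3 nuclei. Its 3.81% of the 105 traced neurons was 3.02-fold this limit. That ratio leaves out the counting error of the 4 traced nuclei, whose intervals reached down to 0.780% and 0.101% by replicate. DE_Tac1 therefore has no firm lower bound on its fold difference. It had the smallest p of the 28 subtypes by edgeR's quasi-likelihood test (adjusted p = 0.0839). In this contrast 0% of the subtypes were called and 6 had an unadjusted p under 0.05. With the number of DE neurons in place of all neurons as the total, its adjusted p was 0.00999 by the same edgeR test. That second fit held only the 10 DE subtypes and was adjusted over these, so it is not a like value to the one over 28. The regenerating group is 1 shallow library of a separate experiment, so that library and group cannot be told apart.

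**Figure D4:**
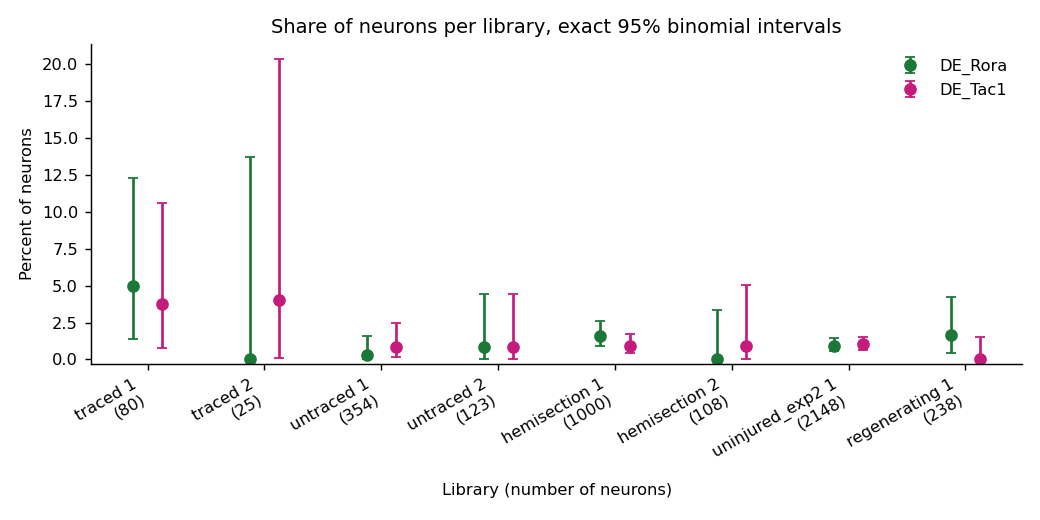
Percent of the neurons of each library that were annotated DE_Rora or DE_Tac1, with exact 95% binomial intervals; the number of neurons stands under each library. The 2 traced libraries, with 80 and 25 neurons, give 5% and 0% for DE_Rora and 3.75% and 4% for DE_Tac1, and the large uninjured library gives 0.931% and 1.02%.

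Gene levels between conditions could be tested only for both subtypes summed. Libraries with at least 10 nuclei of a subtype left no replicates, so a fit of all 8 libraries with any member nucleus was added after the data had been seen. It tested 1002 genes with edgeR's quasi-likelihood test and called 0 genes (0%) in each of the contrasts hemisection minus uninjured, hemisection minus untraced, traced minus untraced and regenerating minus traced; DESeq2 also called 0. At an unadjusted p under 0.05 there were 23, 25, 30 and 212 genes, and the smallest adjusted p was 0.998, 1.00, 1.00 and 0.159.

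In this fit Rora differed by 0.031 on the log2 scale between hemisection and the uninjured library (SE 0.83, edgeR adjusted p = 0.998), and Tac1 by -1.52 (SE 0.99, edgeR adjusted p = 0.998). Between traced and untraced members Rora differed by -0.15 (SE 0.69) and Tac1 by -0.51 (SE 0.93), both with an edgeR adjusted p of 1.00. Among the genes with the smallest p there were Arhgap24, Cdh18 and Arhgap6, whose log2 differences were 3.34, 1.79 and 3.81, and Pde10a and Sema5a, with -1.48 and -2.28, none of which passed (edgeR adjusted p = 1.00). Of the 22 genes with lower values and an unadjusted p under 0.05 between hemisection and uninjured, Atp6v0c and Ndufa4, of the vesicular proton pump and of mitochondrial respiration, had the smallest p, with log2 differences of -2.94 and -4.04 (edgeR adjusted p = 0.998). The mix of DE_Rora and DE_Tac1 nuclei differed between the libraries summed.

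The levels within each subtype could be read side by side in hemisection replicate 1 and the uninjured library, 1 library each, with no test. Rora, Gpc5 and Meis2 were level in DE_Rora: Rora was at 7801 CPM (7378 to 8242) after hemisection and 7739 (7320 to 8176) without injury, Gpc5 at 5019 and 5390, and Meis2 at 245 and 255. Some other leading genes were less so. Sdk1 was 3.17 above the other DE subtypes on the log2 scale in its level, but 2.15 in the uninjured library alone. For Grik3 these values were 5.14 and 4.48, while for Megf11 they were 3.53 and 3.70. In DE_Tac1 Meis2 was at 1881 CPM after hemisection and 1286 without injury, and Nxph1 at 3471 and 2018. Slc17a6 was lower after hemisection in both, at 172 against 413 CPM in DE_Rora and 76.5 against 208 in DE_Tac1. It had a UMI in 13 of 16 and 18 of 20 nuclei of DE_Rora, and in 4 of 9 and 19 of 22 of DE_Tac1. Single uninjured nuclei of experiment 1 ran from 90.2 to 453 CPM in DE_Rora and from 0 to 542 CPM in DE_Tac1.

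Genes of the interferon response were higher in the DE_Rora nuclei of hemisection replicate 1. In DE_Rora 113 of 2219 genes with at least 30 counts were at least 2-fold higher in that library (5.09%) and 210 lower (9.46%). In both subtypes summed 119 of 4030 genes were higher (2.95%) and 454 lower (11.3%), and in the other DE subtypes, with far more counts, 44 of 12180 (0.361%) and 591 (4.85%). The 14 interferon genes summed to 846 CPM (138 counts) after hemisection and 72.8 CPM (12 counts) without injury, a log2 difference of 3.54 (2.69 to 4.52, counting error only). The counts came from 11 of 16 and 9 of 20 nuclei. A single nucleus gave 58 of the 138, and without it the sum was 539 CPM; the counting interval does not cover this spread between nuclei.

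Nlrc5, an activator of MHC class I genes, had 25 counts in 8 nuclei after hemisection and 0 without injury, at least 8.41-fold higher against a floor of 3 counts. H2-K1, an MHC class I gene, had 10 and 0 counts, at least 3.37-fold higher. Folds given as at least, here and below, leave out the counting error of the nonzero count. Ifit1, an interferon-induced gene of antiviral defence, had 12 and 1 counts, and Rnf213, an interferon-induced ubiquitin ligase, 18 and 2. In the remaining libraries the interferon sum of DE_Rora was 73.0 CPM in traced replicate 1 and rested on 1 or 2 counts in the others.

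DE_Tac1 held fewer of these counts. Its interferon sum was 275 CPM (18 counts) after hemisection and 112 CPM (27 counts) without injury, a log2 difference of 1.29 (0.35 to 2.21), and 1 nucleus gave 8 of the 18. Ifit1 had 5 counts in 2 of 9 nuclei and 2 counts in 2 of 22, and Nlrc5 had 0 in both. The other DE subtypes had 348 and 95.5 CPM, a log2 difference of 1.87 (1.73 to 2.01). The antigen presentation list followed the same order, with log2 differences of 1.94 (1.13 to 2.84) in DE_Rora, 0.56 (-0.84 to 1.80) in DE_Tac1 and 1.19 in the other DE subtypes. Whether the subtypes differ in this could not be tested with 1 library each. Microglial markers summed to 61.3 CPM in the DE_Rora nuclei of hemisection replicate 1 and 182 in those of the uninjured library. Their part in the result was not tested.

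Neuropeptide transcripts were lower in hemisection replicate 1. In DE_Tac1 116 of 2047 genes were at least 2-fold higher (5.67%) and 236 lower (11.5%), and all 4 peptide genes with enough counts were among the lower ones. Tac1 was at 168 CPM (84.0 to 301; 6 of 9 nuclei) after hemisection and at 728 (624 to 844; 20 of 22 nuclei) without injury. Gal had 0 counts in 9 nuclei and 50 counts in 15 of 22, at least 4.53-fold lower. Penk had 0 and 62 counts, at least 5.62-fold lower, but its 62 counts came from 7 of 22 nuclei, with up to 20 in 1. Cck had 3 and 118 counts. The 25 peptides summed to 352 CPM after hemisection against 1918 without injury in DE_Tac1 (log2 -2.45), to 116 against 504 in DE_Rora (log2 -2.11) and to 999 against 4149 in the other DE subtypes (log2 -2.05). Traced and untraced libraries of DE_Tac1, all uninjured, summed to 587 to 980 and 576 to 1228 CPM, below the uninjured library of experiment 2, and hemisection replicate 2 to 542 CPM from 1 nucleus.

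Mitochondrial transcripts, cholesterol genes and glial markers differed in the same direction as the peptides. All 9 mitochondrial transcripts with enough counts were at least 2-fold lower after hemisection in each subtype, with sums of 1201 against 6804 CPM in DE_Rora (log2 -2.50; 1 nucleus gave 148 of the 196 counts after hemisection, without which the sum was 322 CPM), 352 against 3840 in DE_Tac1 (log2 -3.45) and 755 against 4399 in the other DE subtypes (log2 -2.54). The share of all genes with at least 30 counts that were at least 2-fold lower was 9.46% in DE_Rora and 11.5% in DE_Tac1. Among the uninjured libraries of experiment 1 the mitochondrial sum of DE_Rora alone ran from 102 CPM in traced replicate 1 (4 nuclei) to 7098 in untraced replicate 1 (1 nucleus). In the other DE nuclei it was 885 and 678 CPM in untraced replicates 1 and 2, and 1082 and 2975 in traced replicates 1 and 2. All of these lay below the 4399 CPM of the uninjured library. The 19 cholesterol synthesis genes summed to 251 against 1129 CPM in DE_Rora (log2 -2.17), 229 against 949 in DE_Tac1 (log2 -2.05) and 239 against 687 elsewhere (log2 -1.53). The oligodendrocyte markers given above differed by -4.33, -4.71 and -3.40 on the log2 scale in the same order. Their part, and that of the mitochondrial share, in the lower peptide and cholesterol sums was not tested.

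Other genes with the largest differences fell into a few kinds. In DE_Rora Nsg1, an endosomal protein of neurons, had 0 counts after hemisection and 44 without injury (at least 14.5-fold lower) and Nefl, the light neurofilament, 0 and 32 (at least 10.6-fold lower). Thy1, a surface glycoprotein of neurons, had 3 and 68 counts, Hspa8, a chaperone, 4 and 51, and Calr, a chaperone of the endoplasmic reticulum, 3 and 39. In DE_Tac1 Glp2r, the receptor of glucagon-like peptide 2, had 0 and 52 (at least 4.72-fold lower), and Nefm, the medium neurofilament, was at 30.6 CPM after hemisection and 287 without injury. Of the genes with at least 30 counts, Trps1, a repressor of the GATA family, was at 233 CPM after hemisection against 54.6 in DE_Rora (log2 2.00). In DE_Tac1 Fam214a led at 245 against 58.2 CPM (log2 1.98), followed by the homeobox factor gene Zfhx4 at 382 against 95.7 (log2 1.94).

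The long-range projection factors summed to 1250 CPM after hemisection against 795 in the uninjured library in DE_Rora (log2 0.65, 0.33 to 0.98), 810 against 320 in DE_Tac1 (log2 1.34, 0.81 to 1.86) and 337 against 247 elsewhere (log2 0.45). Only 2 of the 7 genes had at least 30 counts, of which 0 in DE_Rora and 1 in DE_Tac1 were at least 2-fold higher. Over all genes with at least 30 counts 5.09% were higher in DE_Rora and 5.67% in DE_Tac1. Uninjured libraries of experiment 1 overlapped the hemisection values, with 1607 CPM for DE_Rora in traced replicate 1 and 960 CPM for DE_Tac1 in the 1 nucleus of traced replicate 2. Dcx, which encodes the microtubule protein doublecortin, was at 141 CPM in 12 of 16 nuclei after hemisection and 24.3 in 4 of 20 without injury in DE_Rora (log2 2.32), and at 96.6 and 84.2 CPM in the other DE subtypes; it was singled out after its values were seen. The sums of the dorsal horn transcription factors (0.07 in DE_Rora and 0.36 in DE_Tac1), glutamate receptors (0.34 and 0.06), vesicle release genes (-0.06 and 0.03) and neurofilament and cytoskeleton genes (-0.16 and -0.07) were less than 0.5 apart on the log2 scale. These sums rest on the abundant members: of the neurofilament and cytoskeleton genes with at least 30 counts, 5 of 14 were at least 2-fold lower after hemisection in DE_Rora and 4 of 10 in DE_Tac1, with 0 higher in either. Of the vesicle release genes 3 of 13 were lower in each subtype and 0 higher. Over all genes with at least 30 counts 9.46% were lower in DE_Rora and 11.5% in DE_Tac1.

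**Figure D5:**
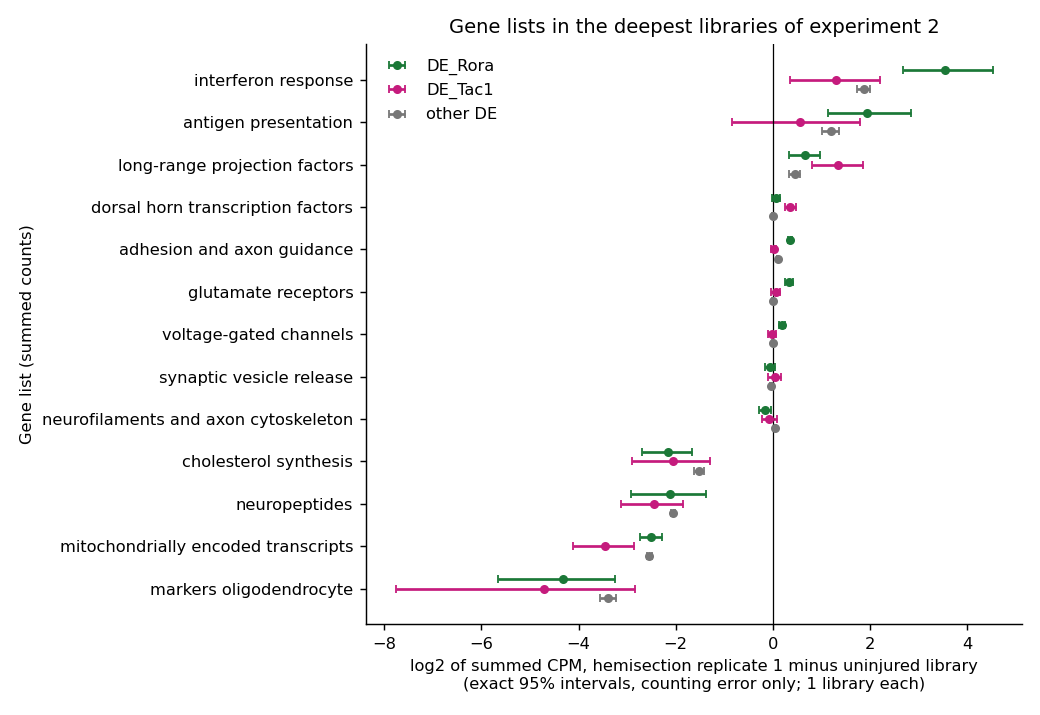
Log2 difference of the summed CPM of gene lists between hemisection replicate 1 and the uninjured library, in DE_Rora, DE_Tac1 and the other DE subtypes, with exact 95% intervals for counting error only and 1 library each. The interferon list lies at 3.54, 1.29 and 1.87, and the neuropeptide list at -2.11, -2.45 and -2.05.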

How the data were processed

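Nuclei were profiled with 10x v3. The authors deposited whole-number UMI counts for 19787 genes and 12447 nuclei, with no normalization, and an annotation. Cell Ranger 4.0.0, Seurat 3 and the builds mm10 and GRCm38 are named per the submitters' processing notes. The sources used here do not state how nuclei were filtered, doublets treated and subtypes named. Doublets were not called anew. The 1 other annotation column was not used. Sample titles gave the groups. In experiment 1 both sorted fractions of a replicate carry the same number in the titles, and were paired as fractions of the same sample.

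Counts were summed per library and subtype (413597 UMIs in DE_Rora, 397255 in DE_Tac1). Levels are CPM averaged over libraries with at least 10 nuclei, with 5 CPM added in ratios, for genes of at least 20 CPM in either side. Hemisection replicate 1 and the uninjured library were compared for genes with at least 30 counts. Named genes are Rora, Tac1 and Slc17a6, the 12 highest and 6 lowest ratios per subtype (highest also with a UMI in at least 20% of nuclei), the largest differences or smallest p per contrast, and members of fixed lists; others were chosen after their values were seen. Members and lists were chosen with earlier results of these data known. The gene tests first planned needed at least 10 nuclei per library and could not be fitted, because no group had replicates, nor could the tests of differences between subtypes. Shares and the added gene fit used edgeR 4.0.16 (glmQLFit, glmQLFTest, Benjamini-Hochberg, 0.05) in R 4.3.3, with 1 coefficient per group, and DESeq2 1.42.0 as an alternative. Groups with 1 library were assumed to vary like the others. The scripts were tested on simulated data. A few genes and subtypes are not reported here. Coordinates come from GENCODE on GRCm38. Python 3.11.15, numpy 2.4.6, scipy 1.17.1 and pandas 2.3.3 were used.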

Additional observations from a re-analysis of the deposited data

How the results depend on the processing

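Log2 differences of shares on leaving out 1 library at a time ran, for DE_Rora, from -5.08 to 0.77 (hemisection minus uninjured), -3.98 to 2.27 (hemisection minus untraced), -4.33 to 3.65 (traced minus untraced) and -1.56 to 6.28 (regenerating minus traced). For DE_Tac1 they ran from -0.18 to -0.14, 0.09 to 0.15, 2.12 to 2.22 and -7.52 to -6.41. TMM scaling gave -0.024 for DE_Tac1 in hemisection minus untraced (main 0.10). With DE neurons as the total, only the 10 DE subtypes were fitted. DE_Tac1 then had -7.63 in regenerating minus traced, a fitted value that depends on the prior count. With the replicate block of experiment 1, traced minus untraced was 3.10 and 2.15 (edgeR adjusted p = 0.220 and 0.146), and the block changed no call. The added gene fit called 0 genes without any 1 library. Levels on leaving out 1 library ran from 1.84 to 1.94 for Rora in DE_Rora, 0.17 to 0.27 for Rora in DE_Tac1, -0.25 to 0.84 and -0.13 to 0.04 for Slc17a6, and 0.17 to 0.86 and 3.14 to 3.47 for Tac1, in DE_Rora and DE_Tac1. Counts pooled over libraries, libraries of at least 5 nuclei, the uninjured library alone (added after the data were seen) and thinned nuclei gave 1.95, 1.95, 2.00 and 1.96 for Rora in DE_Rora; the uninjured library gave 0.86 for Slc17a6 there. Rora in DE_Tac1 was 0.44 at 5 nuclei and 0.33 in the uninjured library. Tac1 in DE_Tac1 was 2.80, 2.66 and 2.18, and Tac1 in DE_Rora (main 0.54) -0.13 pooled and -0.11 in the uninjured library. Slc17a6 in DE_Tac1 (main -0.03) was 0.013 pooled, 0.029 thinned and 0.041 without the regenerating library. Without a filter on counts, also added after the data were seen, 1849 genes were at least 2-fold higher and 3894 lower in DE_Rora, 1673 and 3664 in DE_Tac1, and 735 and 2316 in both summed; at 100 counts 15 and 36, 16 and 44, and 25 and 100 were. The cause of these shifts was not tested. A minimum of 20 nuclei and the alternatives for differences between subtypes were not run, since no replicates were left. Few nuclei per library limit every level.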
